A study of Homo sapiens with 12 samples.

Results

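A set of 9 genes that the tumour suppressor p53 is known to switch on were followed in HEK293T cells, a human embryonic kidney line in which the SV40 large T antigen is expressed. They are TP53I3, AEN, TIGAR, FDXR, MDM2, CDKN1A, ZMAT3, RRM2B and GDF15. The set was given by gene symbol, and each symbol was matched by its Ensembl identifier, which found 9 of 9 among the 60604 gene identifiers of the deposited count table. All 9 passed the filter on low counts, with 74 to 9156 counts in a library.

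The protein p53 is a transcription factor that damage or stress to a cell stabilises, and its targets arrest the cell cycle, repair DNA, change metabolism or start cell death. One of the targets, MDM2, marks p53 for degradation, so that the response limits itself. SV40 large T antigen binds p53 and hinders it from activating its targets, and for that reason HEK293T cells are commonly taken to have an impaired p53 response.

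The 12 libraries form 3 groups of 4. Cells of the first group carried no plasmid, cells of the second carried the vector named sgRNA-dCas9-VP160-P2A-EGF in the labels, and cells of the third carried that vector together with 6 guide RNAs for the promoter of CD34. The protein dCas9-VP160 is a Cas9 that cannot cut DNA, joined to a viral activator of transcription. Per the labels, transfection was with Lipofectamine, 5.4 pmol of plasmid and 48 h, and each group was made in 2 experiments, each on its own batch of cells and with 2 technical replicates. In 1 place the labels call the cells without plasmid non-transfected, and in another they say that reagents without plasmid were added. All groups are 1 cell line with large T antigen, and no group had a plasmid without dCas9-VP160, so effects of the plasmid and of the protein cannot be told apart. If the cells without plasmid received no reagent, its effect cannot be told apart from these either. No group had guides for another target, so effects of guides for CD34 and of guides in general cannot be told apart. The sources used here do not give the share of cells that took up plasmid. In bulk RNA, fewer cells with a transcript and less of it per cell cannot be told apart.

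The libraries held 6750035 to 11932244 gene counts, and 3 counts correspond to 0.251 to 0.444 CPM (counts set to the same total in each library). Levels below are CPM after TMM scaling, edgeR's correction for differences in RNA composition. Of 6 marker genes of the line, VIM (246 to 384 CPM) and NEFL (322 to 562 CPM) were high in all libraries and PAX2 was low (0.113 to 1.18 CPM), while markers of other cells such as PTPRC and DCN were at 0 in 11 of 12 libraries. The share of mitochondrially encoded counts was 8.31% to 8.78% without plasmid, 5.14% to 5.63% with dCas9-VP160 and 5.57% to 7.50% with guides. With guides this share was 5.57% and 5.59% in replicate 1 of experiments 1 and 2, and 7.50% and 7.44% in replicate 2. Its part in the results was not tested beyond a fit without these genes, given at the end. Spike-in sequences made up 0.719% and 0.404% of the counts in the libraries without plasmid of experiment 1 and at most 0.00818% elsewhere.

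The DNA element of p53 is a decamer that occurs in pairs. Promoter windows (250 bases before a start site to 50 after it) were found for 8 of the 9 members in a RefSeq table on GRCh38.p14, 13 windows in all, and RRM2B was not among them. An exact p53 decamer lay in the windows of 2 members, AEN and FDXR, where the same 10 letters occurred. Of 35116 promoters in the table, 6.63% held an exact decamer on either strand. With 1 mismatch allowed, 7 members had a match, but so did 63.7% of all promoters. A member counted if any of its windows matched, whereas the shares of all promoters are per single window, which favours members with several windows. The internal promoter of MDM2, known as its p53-responsive one, held a run of 20 bases made of adjacent decamers with 1 mismatch each. This was the only member with such a run, a search added after the single matches had been seen, and 0.387% of all promoters had one. The bases upstream of 5 starts are shown to set these matches beside the responses below, with the decamers in capitals. They cover chr15:88621090-88621339 (plus strand) for AEN, chr17:74872995-74873244 (minus strand) for FDXR, chr12:68808767-68809016 (plus strand) for MDM2, chr2:24084835-24085084 (minus strand) for TP53I3 and chr6:36678464-36678713 (plus strand) for CDKN1A. The last 2 have no capitals, because neither an exact decamer nor such a run was found in them.
AEN: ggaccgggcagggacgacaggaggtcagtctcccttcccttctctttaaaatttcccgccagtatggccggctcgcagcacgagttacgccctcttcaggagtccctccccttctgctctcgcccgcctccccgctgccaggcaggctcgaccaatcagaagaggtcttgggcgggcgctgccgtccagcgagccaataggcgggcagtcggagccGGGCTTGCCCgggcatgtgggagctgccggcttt
FDXR: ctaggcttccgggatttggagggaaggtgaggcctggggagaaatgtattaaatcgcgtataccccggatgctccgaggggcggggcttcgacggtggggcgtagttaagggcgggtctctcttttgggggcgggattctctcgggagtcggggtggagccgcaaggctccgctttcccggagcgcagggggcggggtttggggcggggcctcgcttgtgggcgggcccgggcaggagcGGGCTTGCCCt
MDM2: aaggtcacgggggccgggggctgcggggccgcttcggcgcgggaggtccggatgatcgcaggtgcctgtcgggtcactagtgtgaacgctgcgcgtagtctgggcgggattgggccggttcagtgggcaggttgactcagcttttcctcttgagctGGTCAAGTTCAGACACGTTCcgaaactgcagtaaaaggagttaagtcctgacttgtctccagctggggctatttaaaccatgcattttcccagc
TP53I3: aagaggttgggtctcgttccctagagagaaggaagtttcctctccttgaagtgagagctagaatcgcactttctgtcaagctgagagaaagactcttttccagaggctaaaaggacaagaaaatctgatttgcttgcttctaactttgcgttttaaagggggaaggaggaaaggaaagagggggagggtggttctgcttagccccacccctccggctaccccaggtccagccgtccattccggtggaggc
CDKN1A: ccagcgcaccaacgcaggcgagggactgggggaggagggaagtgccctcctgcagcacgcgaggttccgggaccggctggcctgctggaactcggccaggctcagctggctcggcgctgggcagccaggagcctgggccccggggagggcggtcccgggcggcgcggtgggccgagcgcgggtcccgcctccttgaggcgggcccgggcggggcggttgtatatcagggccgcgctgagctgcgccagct
The p53 elements known for CDKN1A lie further upstream than this window. The element of ATF4 and CHOP, factors of the integrated stress response, was searched as TGATGNAA and lay in no member's window, against 3.62% of all promoters. The AP-1 site TGANTCA lay in the internal MDM2 promoter alone, against 7.71% of all promoters. A match describes letters, and binding was not measured.

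With dCas9-VP160, 8 of the 9 p53 targets rose and CDKN1A fell. TP53I3, GDF15, TIGAR and AEN rose past 2-fold, FDXR came close to that, and ZMAT3, RRM2B and MDM2 rose by 1.15-fold to 1.32-fold. The response was broad over all genes, and edgeR's quasi-likelihood test called 51.2% of the 19662 genes tested, 26.6% higher and 24.6% lower, at a Benjamini-Hochberg adjusted p under 0.05. A call by itself is therefore common. The median log2 fold change was 0.93 over the 9 members and -0.0020 over all tested genes. The members and the gene lists below were chosen with earlier results of these data known. Their shares and medians beside all genes, here and below, are thus a description and not independent support. The 2 technical replicates of each group in an experiment were summed for this test. Each group thus has n = 2 experiments, all of 1 line. With experiment as a term, the p-values rest on how unevenly the group changes came out in the 2 experiments. They also draw on a spread that edgeR shares across genes.

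**Figure D1:**
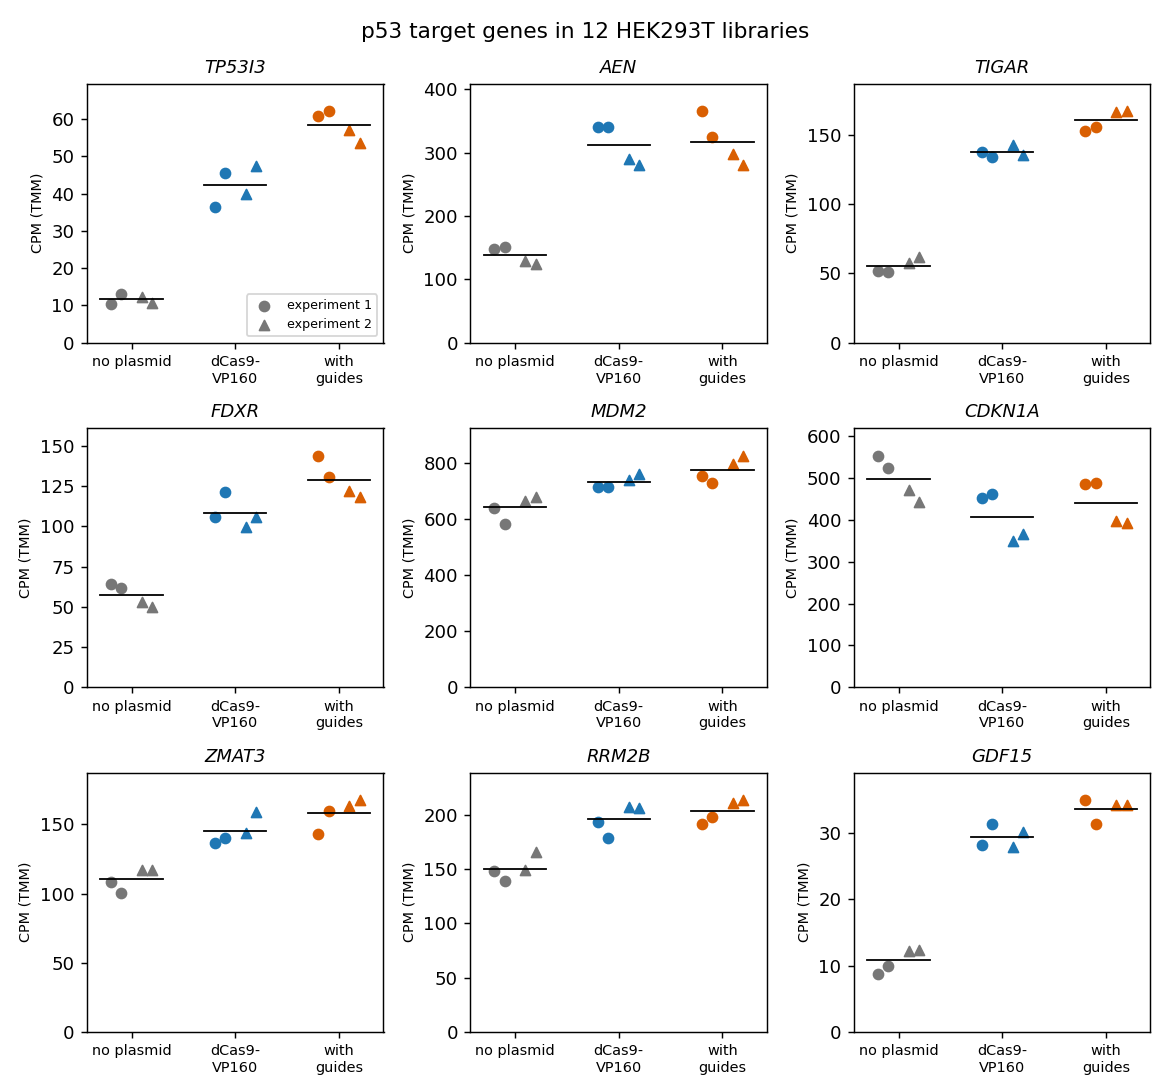
Level of each gene (CPM, TMM-scaled, linear axis from 0) in the 12 libraries, with circles for experiment 1, triangles for experiment 2 and a line at the mean of the 4 libraries of a group. TP53I3 rises from 10.4 to 13.1 CPM without plasmid to 36.4 to 47.4 CPM with dCas9-VP160, whereas CDKN1A is lower with dCas9-VP160 in each experiment.

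TP53I3 (ENSG00000115129, chr2:24077433-24085861, minus strand) encodes a quinone oxidoreductase linked to oxidative stress in p53-driven cell death. Without plasmid it stood at 10.4 and 13.1 CPM in experiment 1 and at 12.4 and 10.7 CPM in experiment 2. With dCas9-VP160 the libraries gave 36.4 and 45.5 CPM, then 40.0 and 47.4 CPM. With guides they gave 60.8 and 62.0 CPM, then 57.1 and 53.6 CPM. The 3 groups did not overlap, and the order was the same in both experiments. The rise with dCas9-VP160 was 3.62-fold (log2 1.86, SE 0.09, adjusted p = 9.67e-16), and the total rise with guides was 5.02-fold (log2 2.33, SE 0.08, adjusted p = 2.65e-18). FAM228B on the opposite strand shares 80 exon bases with TP53I3, and its count over all libraries was 2170 against 4087.

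AEN (ENSG00000181026, chr15:88621296-88632282, plus strand) encodes a nuclease that promotes apoptosis. Its libraries without plasmid held 149 and 151 CPM in experiment 1 and 129 and 124 CPM in experiment 2. Those with dCas9-VP160 held 340 and 341 CPM, then 290 and 281 CPM. Those with guides held 365 and 325 CPM, then 298 and 281 CPM. AEN was thus at 1 low level without plasmid and at overlapping high levels in both transfected groups. It rose 2.28-fold with dCas9-VP160 (log2 1.19, SE 0.04, adjusted p = 3.68e-19). Experiment 2 was lower than experiment 1 across groups (log2 -0.25, adjusted p = 1.01e-06), while the change within each was alike, 1.19 in experiment 1 and 1.18 in experiment 2 on the log2 scale.

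GDF15 (ENSG00000130513, chr19:18374731-18389176, plus strand) encodes a secreted stress cytokine of the TGF-beta family, which the integrated stress response also induces. It was among the lowest members without plasmid, at 8.69 and 10.0 CPM in experiment 1 and 12.3 and 12.3 CPM in experiment 2. With dCas9-VP160 it measured 28.2 and 31.5 CPM, then 27.9 and 30.3 CPM. With guides it measured 35.0 and 31.5 CPM, then 34.3 and 34.2 CPM. Both transfected groups lay above all libraries without plasmid and touched each other. The rise was 2.71-fold with dCas9-VP160 (log2 1.44, SE 0.09, adjusted p = 1.24e-12). It was 1.64 in experiment 1 and 1.25 in experiment 2 on the log2 scale, and the smallest unadjusted p for a difference in response between experiments among the members was that of GDF15 (0.0362, adjusted p = 0.947).

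Of the metabolic members, TIGAR (ENSG00000078237, chr12:4307763-4354593, plus strand) encodes a sugar bisphosphatase that lowers glycolysis. Without plasmid it stood at 52.0 and 51.1 CPM in experiment 1 and at 57.7 and 61.9 CPM in experiment 2. The dCas9-VP160 libraries gave 137 and 134 CPM, then 143 and 136 CPM. The libraries with guides gave 153 and 156 CPM, then 166 and 167 CPM. As for TP53I3, the groups formed 3 steps without overlap. TIGAR rose 2.48-fold with dCas9-VP160 (log2 1.31, SE 0.05, adjusted p = 2.33e-17). A same-strand gene model, AC008012.1, shares 1711 exon bases with TIGAR, and its identifier is absent from the deposited counts.

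FDXR (ENSG00000161513, chr17:74862497-74873031, minus strand) encodes the mitochondrial ferredoxin reductase, which passes electrons for steroid and iron-sulfur cluster synthesis. Its libraries without plasmid were at 64.3 and 61.8 CPM in experiment 1 and at 52.7 and 49.8 CPM in experiment 2. With dCas9-VP160 they were at 106 and 122 CPM, then 99.5 and 106 CPM. With guides they were at 144 and 131 CPM, then 122 and 118 CPM. Every library with plasmid was above every one without, and within each experiment the guides gave the higher level. The rise with dCas9-VP160 was 1.90-fold (log2 0.93, SE 0.05, adjusted p = 5.40e-14).

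CDKN1A (ENSG00000124762, chr6:36676460-36687339, plus strand) encodes p21, the inhibitor of cyclin-dependent kinases through which p53 arrests the cell cycle. It went the other way. The libraries without plasmid held 553 and 524 CPM in experiment 1 and 472 and 442 CPM in experiment 2. With dCas9-VP160 the values were 453 and 462 CPM, then 350 and 366 CPM. With guides they were 486 and 490 CPM, then 397 and 392 CPM. Over all 12 libraries the groups overlapped, because experiment 2 was lower than experiment 1 by 0.30 on the log2 scale (adjusted p = 4.39e-08). Within each experiment they did not overlap, and the order was no plasmid, guides, dCas9-VP160 from high to low. CDKN1A fell by 0.28 on the log2 scale with dCas9-VP160 (SE 0.04, adjusted p = 2.22e-07), by 0.22 in experiment 1 and by 0.34 in experiment 2. Without experiment in the model this call was lost (adjusted p = 0.167, with 7.06e-13 to 0.167 over 26 alternatives). The antisense transcript DINOL shares 146 exon bases with CDKN1A, and its identifier is absent from the deposited counts.

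MDM2 (ENSG00000135679, chr12:68808176-68850686, plus strand) encodes the ubiquitin ligase that degrades p53. Libraries without plasmid gave 641 and 585 CPM in experiment 1 and 665 and 681 CPM in experiment 2. The dCas9-VP160 libraries were at 715 and 717 CPM, then at 742 and 763 CPM. Those with guides reached 755 and 729 CPM, then 798 and 827 CPM. No library without plasmid reached the lowest with it, although the step was small. MDM2 rose 1.15-fold (log2 0.21, SE 0.03, adjusted p = 7.59e-06), the least of the 8 that rose. Without experiment in the model its adjusted p was 0.0969, the highest over 26 alternatives, of which the lowest was 1.07e-07. Counts of MDM2 cannot separate its upstream from its internal promoter. The antisense gene AC025423.4 shares 785 exon bases with MDM2 and had 21145 counts against 79809, so part of either count may belong to the other.

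ZMAT3 (ENSG00000172667, chr3:179017223-179072279, minus strand) encodes a zinc finger protein that binds RNA. It stood at 109 and 100 CPM without plasmid in experiment 1 and at 117 and 117 CPM in experiment 2. With dCas9-VP160 it stood at 137 and 140 CPM, then 144 and 159 CPM, and with guides at 143 and 160 CPM, then 163 and 167 CPM. The change with dCas9-VP160 was 1.32-fold (log2 0.40, SE 0.04, adjusted p = 1.40e-08), and those libraries did not overlap with the ones without plasmid.

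RRM2B (ENSG00000048392, chr8:102204502-102239118, minus strand) encodes the p53-inducible small subunit of ribonucleotide reductase, which supplies deoxynucleotides for DNA repair. Its levels were 148 and 139 CPM without plasmid in experiment 1 and 149 and 166 CPM in experiment 2. They were 194 and 179 CPM, then 207 and 207 CPM with dCas9-VP160, and 192 and 198 CPM, then 211 and 214 CPM with guides. RRM2B rose 1.32-fold with dCas9-VP160 (log2 0.40, SE 0.04, adjusted p = 4.17e-09), again with no overlap between these groups, and its transfected groups overlapped each other.

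Set per length of exons (RPKM over the union of exons), CDKN1A was the most abundant member without plasmid at 162, followed by MDM2 at 48.0, RRM2B at 27.0, AEN at 22.8, FDXR at 15.8, TIGAR at 13.8 and ZMAT3 at 11.4. GDF15 at 5.18 and TP53I3 at 5.04 were the lowest, and these differed by less than the spread between their libraries. With dCas9-VP160 the level of AEN on that scale, 52.0, came close to that of MDM2 at 55.3, and TP53I3 at 18.2 passed ZMAT3 at 15.1. CDKN1A remained first at 134.

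Adding the guides to dCas9-VP160 raised 4 members. TP53I3, FDXR, TIGAR and CDKN1A rose, and the other 5 did not pass the test. Here 7.56% of the tested genes were called, 4.16% higher and 3.41% lower, against 44.4% of the members, all higher. TP53I3 rose 1.39-fold (log2 0.47, SE 0.07, adjusted p = 5.82e-05). FDXR rose by 0.26 on the log2 scale (SE 0.05, adjusted p = 0.00116). TIGAR rose 1.17-fold (log2 0.22, SE 0.05, adjusted p = 0.00295). The smallest called change was that of CDKN1A (log2 0.12, SE 0.04, adjusted p = 0.0426), toward its level without plasmid. The libraries of the transfected groups overlapped for all members but TP53I3 and TIGAR, while within each experiment only AEN overlapped in both. With so few libraries per group in an experiment, separation can arise by chance. Its share among all tested genes was not counted, so overlap is given here and above as a description.

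The 5 members that did not pass with guides were GDF15 (log2 0.20, SE 0.08, adjusted p = 0.127), ZMAT3 (0.13, SE 0.04, adjusted p = 0.0727), MDM2 (0.08, SE 0.03, adjusted p = 0.155), RRM2B (0.05, SE 0.04, adjusted p = 0.556) and AEN (0.02, SE 0.04, adjusted p = 0.767). All 9 changes were above 0 in both experiments, against 31.4% of all tested genes, though that of AEN turned to -0.01 when libraries were scaled by total counts alone, to -0.03 without the replicate 1 libraries and to -0.02 without replicate 1 of experiment 1 with guides. Scaling by total counts moved the split of all calls from 817 higher and 670 lower to 517 higher and 1122 lower, and it left 3 members called. Over 26 alternatives the call of TP53I3 was lost in 3, of FDXR in 3, of TIGAR in 4 and of CDKN1A in 13. The call of CDKN1A was lost when any 1 of 6 libraries was left out. These were replicate 1 of experiment 1 (adjusted p = 0.0933) and replicate 2 of experiment 2 (0.173) without plasmid, the same positions with dCas9-VP160 (0.147 and 0.0584), and replicate 1 of experiments 1 (0.102) and 2 (0.103) with guides, in a range of 0.00980 to 0.904 over its alternatives. ZMAT3 passed in 5 alternatives, among them without replicate 1 of experiment 2 without plasmid (0.0401) and without replicate 2 of experiment 2 with dCas9-VP160 (0.0468), in a range of 0.0401 to 0.828. Without the replicate 1 libraries, the change of FDXR was 0.13 (adjusted p = 0.341, range 2.92e-06 to 0.654) and that of TP53I3 was 0.30 (adjusted p = 0.0788, range 2.82e-11 to 0.338).

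Against cells without plasmid, the cells with guides again had 8 members higher and CDKN1A lower. This comparison shares its controls with the one of dCas9-VP160, so its values are given beside that one and not as a second test. It called 52.6% of all tested genes, 26.7% higher and 25.9% lower, and the median log2 fold change was 1.19 over the members and -0.02 over all. After TP53I3 came GDF15 at 1.64, TIGAR at 1.53, AEN at 1.21, FDXR at 1.19, ZMAT3 at 0.53, RRM2B at 0.45 and MDM2 at 0.28. CDKN1A fell by 0.16 (SE 0.04, adjusted p = 3.70e-04). That call was lost in experiment 1 alone (adjusted p = 0.0515) and without experiment in the model (0.414), with 2.14e-05 to 0.414 over its 26 alternatives.

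**Figure D2:**
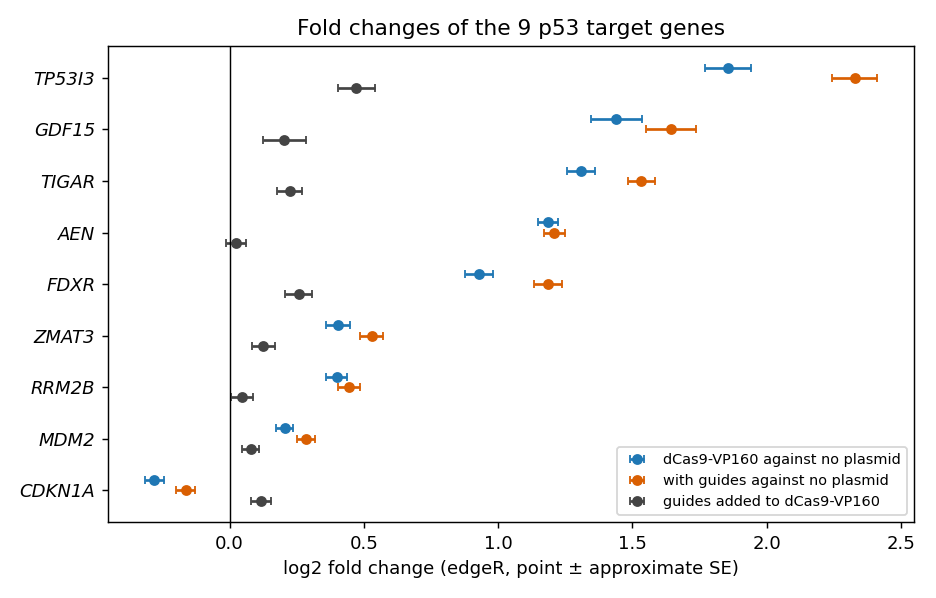
Log2 fold change of each member in 3 comparisons, as points with the approximate SE of the edgeR fit (n = 2 experiments per group), ordered by the response to dCas9-VP160. TP53I3 leads at 1.86 and CDKN1A is the only member below 0 at -0.28, while the steps from adding guides lie between 0.02 and 0.47.

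Baseline levels differed between the batches of cells. Experiment 2 against experiment 1 called 24.2% of tested genes. Among the members, CDKN1A (log2 -0.30), AEN (-0.25) and FDXR (-0.20) were lower in experiment 2, and MDM2 (0.12), ZMAT3 (0.14) and RRM2B (0.14) were higher. TP53I3 (-0.02), GDF15 (0.09) and TIGAR (0.11) did not pass the test. The response to dCas9-VP160 differed between experiments for 0.0116% of 17218 genes (RCC2 and RPL37A, named after their values were seen). It did so for 0 of the 9 members by edgeR's interaction test, with 1 at an unadjusted p under 0.05, in a fit that takes its spread from technical replicates.

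The authors' deposited table of 97 genes lists 4 members. In that authors' deposited table TP53I3 has log2 fold changes of 1.84 with dCas9-VP160 and 2.32 with guides (adjusted p = 5.62e-12 and 5.16e-31, DESeq2 columns). AEN has 1.17 and 1.19 in the authors' deposited table, TIGAR has 1.29 and 1.51, and GDF15 has 1.43 and 1.62. All 194 test statistics of the authors' deposited table equal the absolute log2 fold change minus 1, divided by its standard error (within a tolerance of 1e-06), so the p-values there test for a change beyond 2-fold. FDXR and the smaller responders are not among its rows.

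Of 16 tested genes that act on p53, 4 rose and 6 fell with dCas9-VP160, against 26.6% of all tested genes higher and 24.6% lower (median log2 fold change -0.10, against -0.0020 over all genes), and TP63 was not tested for want of counts. RCHY1, another ubiquitin ligase of p53, rose by 0.46 on the log2 scale, the phosphatase gene PPM1D by 0.41, and the kinase genes CHEK1 and ATR by 0.33 and 0.27. HIPK2 (-0.43) and ATM (-0.39), both kinases that act on p53, fell, as did CREBBP (-0.21), KAT5 (-0.18), TP53BP1 (-0.17) and CHEK2 (-0.16). MDM4, the partner of MDM2, had a log2 fold change of 0.01 (adjusted p = 0.881). With guides added, edgeR called 0 of the 16 regulators, against 7.56% of all tested genes, and 2 had an unadjusted p under 0.05. DESeq2 and limma voom called 0 as well, against 1.39% and 6.88% of all tested genes. Scaling by total counts called 2, against 8.34% of all tested genes. The protein and activity of p53 and large T antigen were not measured.

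Most other known p53 targets rose with dCas9-VP160 too. Of 68 tested, 46 rose and 7 fell, 77.9% called against 51.2% of all genes, with a median log2 fold change of 0.37. The list was chosen with earlier results of these data known, so these shares are a description and not independent support. In growth arrest, 8 of 12 rose and 2 fell. GADD45A (1.1), PHLDA3 (0.65) and the cell cycle gene SFN (0.56) rose most, and the antiproliferative genes TOB1 (-0.35) and BTG1 (-0.27) fell. Of 15 cell death targets 8 rose and 3 fell, led by the death receptor gene FAS (0.84) and the TRAIL receptor genes TNFRSF10D (0.68) and TNFRSF10A (0.53), while TP53INP1 (-0.19) and BAX (-0.16) fell. The third fall was that of another TRAIL receptor gene, TNFRSF10C (-0.84, adjusted p = 0.00207), from 3.50 to 1.95 CPM, and TNFRSF10B did not pass (-0.03, adjusted p = 0.647), both named after their values were seen. The BH3-only genes BBC3 (0.05, adjusted p = 0.628) and PMAIP1 (-0.02, adjusted p = 0.606), named after their values were seen, did not pass the test.

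Among DNA repair targets 6 of 7 rose and 0 fell, led by ASCC3 (0.61), the polymerase gene POLH (0.53) and TRIAP1 (0.51). For all lists in this paragraph the background was 26.6% of all tested genes higher and 24.6% lower. Of 12 metabolic and autophagy targets 9 rose and 0 fell, led by the glutaminase gene GLS2 (1.39), the ceramidase gene ACER2 (0.96) and the stress gene SESN2 (0.65). In the remaining 22, which encode surface, secreted and other proteins, 15 rose and 2 fell. The lipid transporter gene ABCA12 rose by 2.43, CLCA2 by 1.5 and the cytokine gene LIF by 1.15, and IER5 (-0.47) and the ligand gene KITLG (-0.38) fell. ABCA12 was low, at 1.24 CPM without plasmid and 6.77 CPM with dCas9-VP160.

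**Figure D3:**
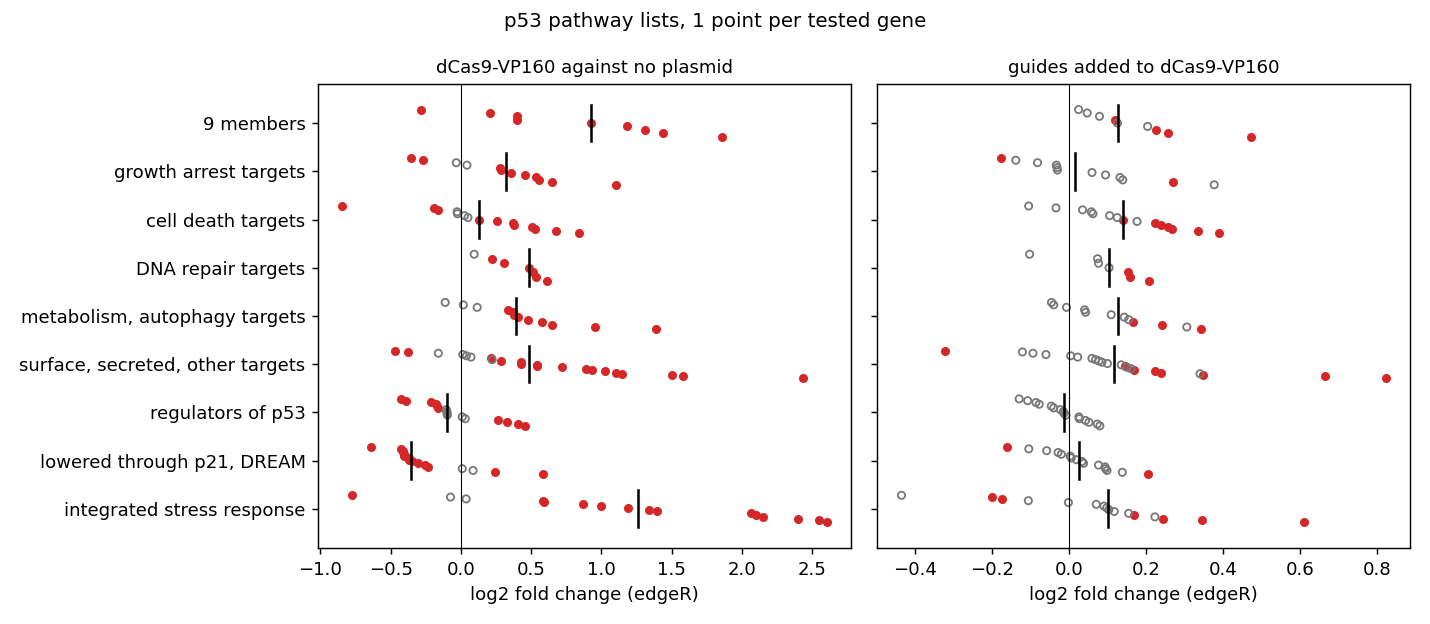
Log2 fold change of every tested gene of each list, with filled red points for genes called by edgeR, open points for the rest and a vertical bar at the median of the list, for dCas9-VP160 (left) and for adding guides (right, on a narrower axis). The members have a median of 0.93 on the left and 0.13 on the right, and the 68 other targets together have medians of 0.37 and 0.11.

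When guides were added, 21 of the 68 other targets rose and 2 fell, 33.8% called against 7.56% of all genes (median log2 fold change 0.11, against -0.0040). By edgeR in experiment 1 alone 9 rose and 0 fell with 2.57% of all genes called, and in experiment 2 alone 8 rose and 0 fell with 1.68% called. Without experiment in the model 0 were called by edgeR, with 17 at an unadjusted p under 0.05, and 0.00509% of all genes were called. DESeq2 called 8 higher, with 1.39% of all genes called. Of the cell death targets 7 of 15 rose and 0 fell, namely TNFRSF10D (0.39), APAF1 (0.33), TNFRSF10A (0.27), TP53INP1 (0.26), IKBIP (0.24), EDA2R (0.22) and PIDD1 (0.14). POLH (0.21), ASCC3 (0.16) and TRIAP1 (0.15) rose in DNA repair, and GLS2 (0.34), SPATA18 (0.24) and ISCU (0.17) in metabolism. CLCA2 (0.82), ABCA12 (0.66), TRIM22 (0.35), CMBL (0.24), PTP4A1 (0.22), TM7SF3 (0.17) and BLOC1S2 (0.14) rose and LIF fell (-0.32). In growth arrest E2F7 rose (0.27) and PLK2 fell (-0.18). The largest adjusted p among these 23 was that of LIF (0.0382, edgeR).

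Genes that p21 lowers through the DREAM repressor complex, mostly genes of mitosis, were mainly lower with dCas9-VP160. Of 16 tested, 12 fell and 2 rose, against 24.6% of all tested genes lower and 26.6% higher (median log2 fold change -0.36, against -0.0020). CENPA (-0.64), a centromeric histone, CCNB1 (-0.43), a mitotic cyclin, and BUB1 (-0.41), a checkpoint kinase, fell most, and MYBL2 (0.58) and NEK2 (0.25) rose. With guides added, MYBL2 rose (0.20) and CDC20 fell (-0.16), and the other 14 did not pass, against 7.56% of all tested genes called. CDKN1A, the gene of p21, fell with dCas9-VP160 rather than rose, and the part of p21 in these changes was not tested.

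The integrated stress response, which also induces GDF15, moved with the members. Of 16 genes 13 rose and 1 fell with dCas9-VP160, against 26.6% of all tested genes higher and 24.6% lower (median log2 fold change 1.26, against -0.0020), led by CHAC1 (2.61), SLC7A11 (2.55) and NUPR1 (2.40), and VLDLR fell (-0.77). Its part in the responses of the p53 targets was not tested. With guides added 4 rose and 2 fell, against 4.16% of all tested genes higher and 3.41% lower, namely NUPR1 (0.61), TRIB3 (0.35), PSAT1 (0.24) and DDIT3 (0.17), and PPP1R15A (-0.20) and ATF3 (-0.17).

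**Figure D4:**
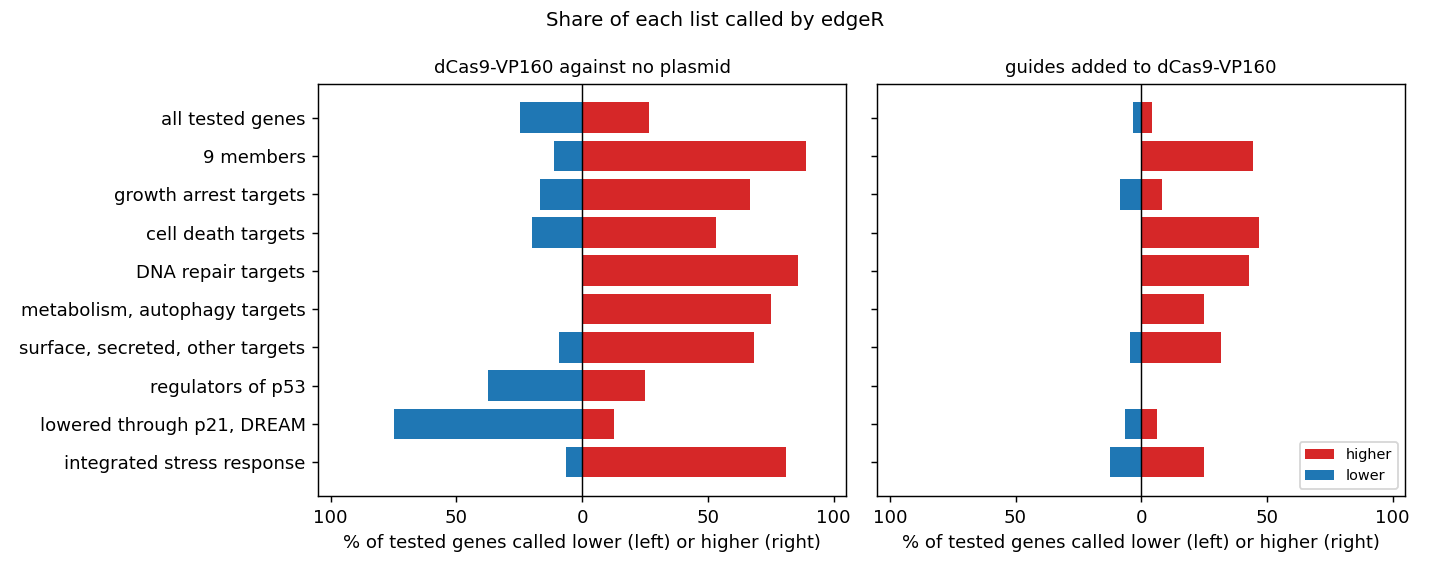
Percentage of the tested genes of each list that edgeR called higher (red, to the right) or lower (blue, to the left) with dCas9-VP160 (left panel) and on adding guides (right panel), with 0 in the middle of a linear axis. The top bar is the background of all tested genes, 26.6% higher and 24.6% lower in the left panel, and the 9 members are 8 higher and 1 lower there.

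The nearest patterns to the members were sought among 12216 other genes by the root mean square (RMS) difference of centred log2 CPM over the 12 libraries. TP53I3 was nearest to TRIB3 (0.19) and DDIT3 (0.21), AEN to YARS1 (0.07) and DUSP3 (0.10), and TIGAR to CEBPG (0.09) and ZBTB21 (0.09). FDXR was nearest to AARS1 (0.07) and ELF4 (0.08), and GDF15 to ULBP1 (0.12) and HMOX1 (0.13). CDKN1A was nearest to ITM2C (0.05) and DIPK1B (0.06), MDM2 to DNAJC9 (0.04) and MASTL (0.04), ZMAT3 to RFK (0.05) and MRPL18 (0.05), and RRM2B to COX11 (0.04) and INSIG1 (0.04). These RMS values are small beside the SD of log2 CPM of TP53I3 itself (1.00) and less so beside that of MDM2 (0.13). They are descriptions over libraries that share groups and batches.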

How the data were processed

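RNA was sequenced from 12 HEK293T libraries. The authors deposited raw counts per gene. Per the submitters' processing notes, Trim Galore 0.3.7, STAR 2.6.0c, hg38, Picard 2.17.1 and DESeq2 1.16.1 were used, and the sources used here do not give the counting program or annotation release. The labels call the libraries directional, but neither SMART-Seq HT nor Nextera XT, the named kits, marks strand, so a gene and its antisense partner cannot be told apart. The second deposited table holds, per the file headers, a mean normalised signal, log2 fold changes with standard errors, a test statistic (a score) and p-values.

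Technical replicates were summed to 6 libraries and fitted in R 4.3.3 by edgeR 4.0.16 (TMM, filterByExpr, robust quasi-likelihood test, group and experiment as terms, 2 residual degrees of freedom). Benjamini-Hochberg adjustment ran over 19662 genes, with calls at an adjusted p under 0.05. The script was tested on simulated data. The approximate SE is the size of the log2 fold change over the square root of F. Limma 3.58.1 and DESeq2 1.42.0 were alternatives. A total of 92 spike-in rows stayed out. Experiment numbers mark shared batches of cells per the labels, and the differences between experiments correlated across 12875 genes between groups (r = 0.616 to 0.631). The experiment term takes up the mean shift between these 2 batches. P-values of the main fit rest on how unevenly the group changes came out in the 2 experiments. They also draw on a spread shared across genes (median prior degrees of freedom 24.0, against 2 residual ones).

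Members and lists were chosen with earlier results of these data known. Named genes were all members, the 3 called list genes with the largest rise and fall at a mean of at least 5 CPM, tested regulators of p53, list genes called with guides, and the 2 nearest patterns per member. Gene positions are from GENCODE on GRCh38. SCO2 had no identifier match, and TP53AIP1 and SERPINB5 had at most 5 counts in a library. 1 of the listed regulators is not reported here.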

Additional observations from a re-analysis of the deposited data

How the results depend on the processing

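Leaving out libraries kept all 9 members called with dCas9-VP160 and with guides against no plasmid, while genes called ranged from 7428 to 10033 and from 7577 to 10307. For guides added to dCas9-VP160 the same alternatives gave 1 to 5 members and 417 to 1870 genes, with 723 genes without replicate 2 of experiment 2 without plasmid and 901 without replicate 1 of experiment 1 with guides. Keeping only replicate 2 libraries gave 417 genes and 1 member, and only replicate 1 libraries gave 792 genes and 2 members. DESeq2 called 6133 genes with dCas9-VP160, 6607 with guides against no plasmid, and 274 genes and 2 members for guides added. Experiment 1 alone called 446 genes and 2 members for guides added, and experiment 2 alone 292 genes and 1 member. With no replicate block (experiment left out), 5564, 6098 and 1 genes were called, and 7, 8 and 0 members. With the technical replicate number as a replicate block over 12 libraries, 9549, 9912 and 1450 genes were called, and 9, 9 and 4 members. The interaction with experiment called 6 genes with no filter on low counts. With mitochondrially encoded genes left out, 8 members were called higher and 1 lower with dCas9-VP160, with 51.7% of all genes called. For guides added that fit called 5 members higher and 0 lower, with 8.27% of all genes called. The cause of these shifts was not tested. Of 234 member values per comparison, 232 kept their side of the threshold with dCas9-VP160, 232 with guides against no plasmid and 206 for guides added. Among the last, the value of AEN, which was not called, fell below 0 in 3 alternatives, to -0.03 at the lowest. No called member changed sign under any alternative. A p53 decamer was found in 7 members with 1 mismatch allowed in any of their windows, against 63.7% of single promoter windows. Counts of 74 to 363 per library limit GDF15 the most, and n = 2 experiments limits every test. Among 27 sets of 4 libraries (a member in a group), 0 held a library far from the others by Dixon's criterion. Each set pools 2 experiments, so a shift between batches widens its range, and the check has little power to flag a library.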
